A study of Mus musculus with 3 samples.

Results

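The genes described here encode the proteins of the cytosolic ribosome, and the question was where the polycomb enzyme EZH2 lay at them in mouse macrophages before and after a bacterial stimulus. They were chosen by symbol alone, though with earlier results of these data known. Taken were the protein-coding genes named Rpl or Rps with a number, together with Rpsa, Rplp0, Rplp1 and Rplp2. The S6 kinase genes were left out. The rule gave 84 of 21887 protein-coding genes listed by RefSeq for GRCm38.p6 (mm10), with 52 genes of the large and 32 of the small subunit. The data were EZH2 chromatin immunoprecipitation followed by sequencing (ChIP-seq) on macrophages that were grown for 5 days from the bone marrow of adult C57BL/6 mice with M-CSF-conditioned medium. There was 1 EZH2 library of untreated cells (NT), 1 of cells given lipopolysaccharide (LPS) for 2 h, and 1 library of input DNA, whose values were not analysed here. No genetic change is named in the labels, and the LPS dose and the number of mice behind each library are not given in the sources used here. With 1 library per condition there was no test between conditions, and every difference below compares these libraries.

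Ribosomal proteins assemble with ribosomal RNA into the particle that translates messenger RNA, and nearly every cell makes them in equal proportion and in large amounts. Their genes are short and active, many carry small nucleolar RNA (snoRNA) genes in their introns, and many of their messages begin with a C followed by a run of pyrimidines, the terminal oligopyrimidine (TOP) start that couples translation to mTOR signalling. EZH2 is the subunit of polycomb repressive complex 2 that methylates lysine 27 of histone H3, a mark best known from silent developmental genes with CpG-rich promoters.

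The authors' track file lists intervals, which are regions enriched for EZH2, and for each interval a summit position with a value. The unit of this summit value, the read depth and any scaling between libraries were not given in the sources used here. Whether a lower value or a missing interval in LPS means less bound EZH2 or a library that shows less of it cannot be told apart, and in bulk chromatin a value does not tell the share of cells that carry EZH2 from the amount in each cell. NT had 9643 intervals with a median value of 27 and a lowest value of 11. LPS had 4651 with a median of 16 and a lowest value of 7. The stimulated track is named TLR, and taking it as the LPS sample is an inference from that name. The macrophage identity of the cells could not be checked from EZH2 intervals. Of 9 macrophage marker genes, 3 had an NT interval (Mertk at 36, Spi1 at 23 and Cd14 at 20) and 0 had an LPS interval.

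Most ribosomal protein genes had a called EZH2 interval near a gene end in untreated cells. An NT interval lay within 2.5 kb of either gene end at 58 of the 84 genes (69.0%), against 38.2% of all protein-coding genes. An LPS interval lay there at 19 genes (22.6%), against 16.2% of all. With only the intervals whose value reached their list's median, this order turned over, to 3 of 84 members against 9.75% of all genes. All 19 had an interval in NT too, so 22.6% had one in both libraries (15.6% of all genes) and 39 genes or 46.4% had one in NT alone (22.6% of all). None had one in LPS alone, where the background was 0.535% of all genes. The members are short, with a median length of 3179 bp (592 to 11774), and among the 1795 protein-coding genes with a length in the interquartile range of the members 35.0% had an NT and 17.2% an LPS interval. The members rested on 61 NT and 20 LPS intervals, and no NT interval served more than 1 member.

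**Figure D1:**
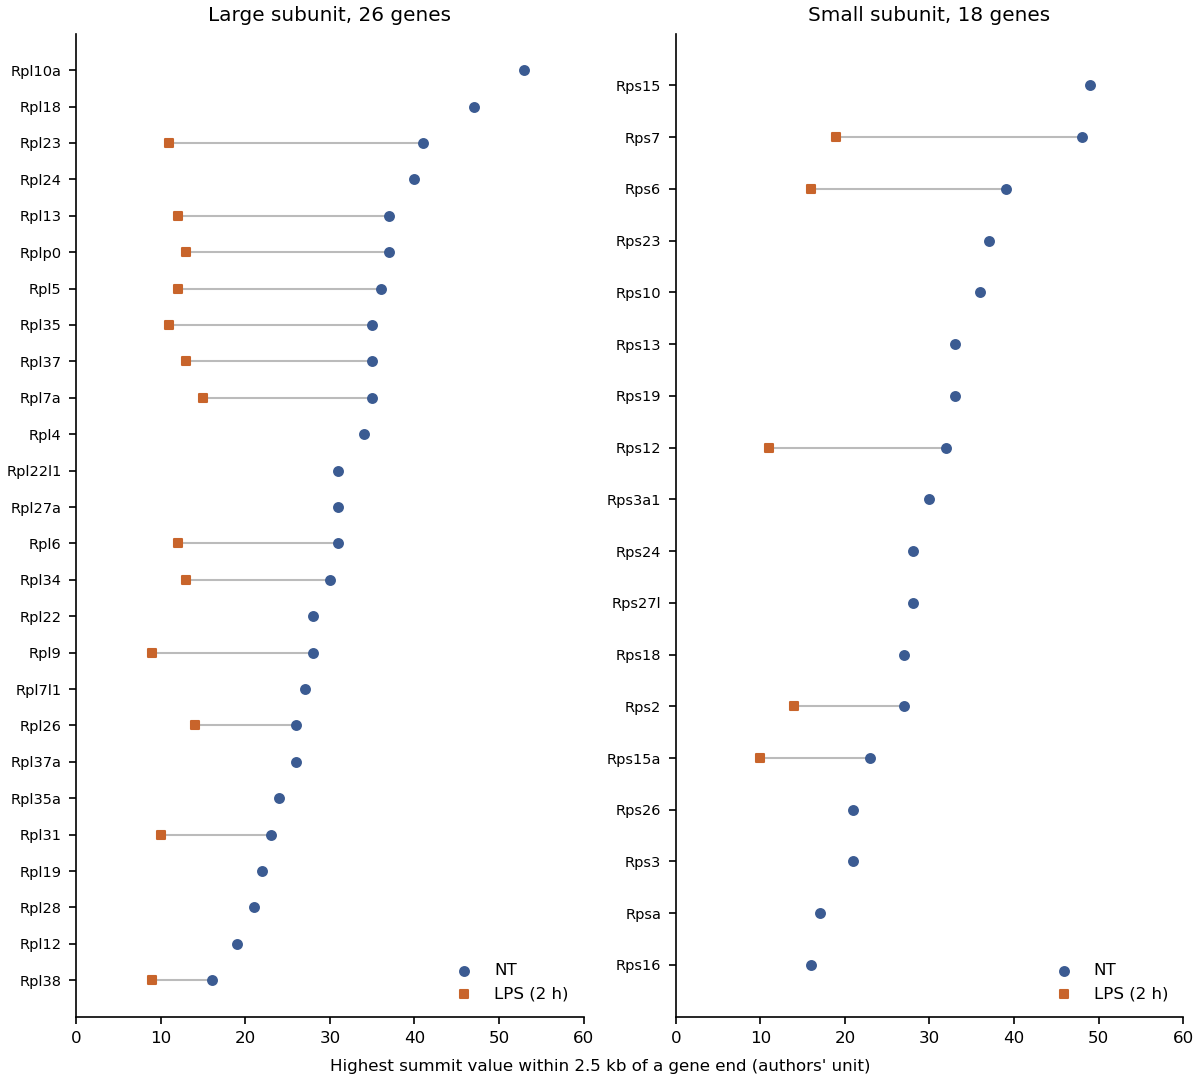
Highest summit value within 2.5 kb of either gene end (horizontal axis, in the authors' unit) for the 44 ribosomal protein genes with an NT interval and a start in the RefSeq promoter table, split into large and small subunit. Blue points are the NT library and orange squares the LPS library, joined by a line where both have an interval. An LPS point is present for 18 of the 44 genes. Each lies below its NT point, as the LPS value does at most protein-coding genes with both.

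At the promoters, most EZH2 summits lay just inside the genes. The RefSeq promoter table, which runs from 250 bases before to 50 bases after a gene's start, matched 64 of the 84 members and gave the strand for them. Of the 44 matched members with an NT interval, 40 (90.9%) had the summit of their highest interval within 500 bp of an annotated start, against 69.2% of 6633 protein-coding genes. These 40 summits lay at -324 to 336 bp from the start (positive into the gene), with a median of 110 bp (interquartile range 64.75 to 146.2), and 38 of the 40 were on the gene side. Over all protein-coding genes with a summit within 500 bp, the median was 94 bp and 70.6% were on the gene side. Rps7 had its summit 144 bp, Rplp0 118 bp and Rps6 118 bp into the gene, while Rpl35 and Rpl37 had theirs at -86 and -324 bp. In LPS, 16 of 18 members with a listed start had the summit within 500 bp of it, all 16 on the gene side with a median of 118 bp, and the exceptions were Rpl6 at 508 and Rpl38 at 717 bp. Over all protein-coding genes with an LPS interval, 55.6% had the summit that near, and 70.6% of these were on the gene side. Summits fell on a 16 bp grid in 96.6% of NT and 93.3% of LPS cases, which limits the precision of these distances.

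**Figure D2:**
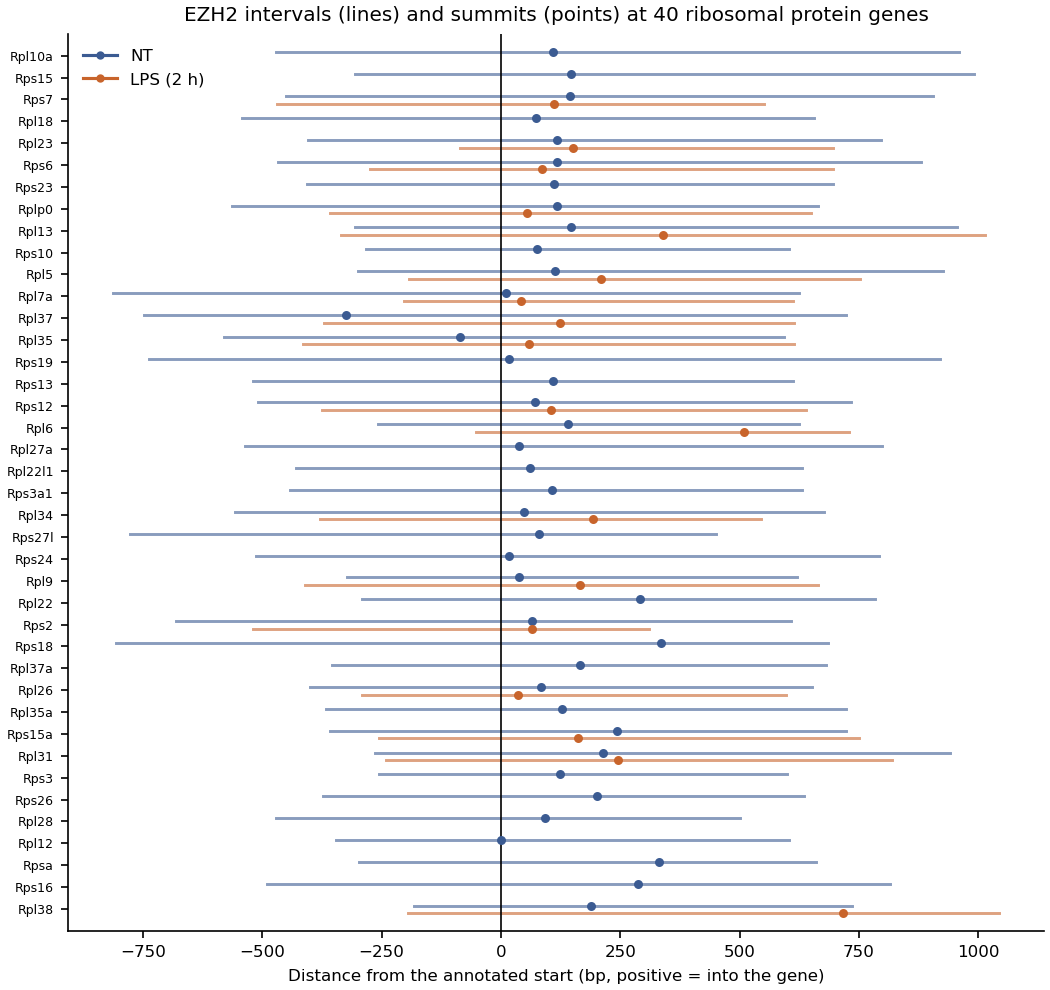
EZH2 intervals (lines) and summits (points) at the 40 ribosomal protein genes whose highest NT summit lay within 500 bp of an annotated start, ordered by NT value from bottom to top. The horizontal axis is the distance from the start in bp, positive into the gene; NT is blue and LPS orange, and 38 of the 40 NT summits lie at or to the right of the start.

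The following sequences show the stretch around the start of a few members, with and without an interval. Only 8 of the 40 NT summits near a start lay inside the promoter window. The members shown with an interval were taken from these, so the position of their summits is not typical. Each gives the 250 bases before the annotated start and the 30 bases from it on, 5′ to 3′ on the gene's strand, from RefSeq on GRCm38.p6. The rule took members by NT value among those with the summit inside the promoter window, and members without any interval by symbol, and 3 and 2 of them are shown. Capitals mark a TOP start (a C and at least 4 more pyrimidines, beginning within 5 bases of the start), the ETS family core CCGGAAG, or AAGATGG, a core of the YY1 site, on either strand.
Rpl35 (chr2:39005102-39005381, minus strand, NT value 35): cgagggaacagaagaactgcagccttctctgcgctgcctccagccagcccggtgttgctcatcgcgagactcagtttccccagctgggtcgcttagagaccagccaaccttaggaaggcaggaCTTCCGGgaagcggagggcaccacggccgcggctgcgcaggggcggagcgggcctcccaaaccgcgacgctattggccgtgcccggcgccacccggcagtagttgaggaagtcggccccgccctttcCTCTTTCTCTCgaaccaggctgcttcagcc
Rpl7a (chr2:26910557-26910836, plus strand, NT value 35): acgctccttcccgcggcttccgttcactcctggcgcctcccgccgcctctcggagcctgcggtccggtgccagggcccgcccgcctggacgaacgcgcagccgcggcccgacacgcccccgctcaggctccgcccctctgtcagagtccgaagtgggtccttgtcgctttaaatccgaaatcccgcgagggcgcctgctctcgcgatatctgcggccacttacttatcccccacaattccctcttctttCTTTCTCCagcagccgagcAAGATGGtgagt
Rps19 (chr7:24884342-24884621, plus strand, NT value 33): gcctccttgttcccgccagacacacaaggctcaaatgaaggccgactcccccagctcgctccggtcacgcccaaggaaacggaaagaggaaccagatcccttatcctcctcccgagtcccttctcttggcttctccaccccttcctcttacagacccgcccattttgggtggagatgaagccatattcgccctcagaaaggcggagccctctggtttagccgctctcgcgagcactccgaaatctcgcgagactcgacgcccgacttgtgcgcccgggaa
Rpl10 (chrX:74270566-74270845, plus strand, no interval): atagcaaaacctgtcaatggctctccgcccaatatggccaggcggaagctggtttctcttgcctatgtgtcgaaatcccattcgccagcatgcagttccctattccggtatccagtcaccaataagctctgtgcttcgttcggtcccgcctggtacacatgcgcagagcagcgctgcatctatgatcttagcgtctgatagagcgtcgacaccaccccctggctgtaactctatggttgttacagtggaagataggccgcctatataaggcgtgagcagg
Rpl10l (chr12:66284372-66284651, minus strand, no interval): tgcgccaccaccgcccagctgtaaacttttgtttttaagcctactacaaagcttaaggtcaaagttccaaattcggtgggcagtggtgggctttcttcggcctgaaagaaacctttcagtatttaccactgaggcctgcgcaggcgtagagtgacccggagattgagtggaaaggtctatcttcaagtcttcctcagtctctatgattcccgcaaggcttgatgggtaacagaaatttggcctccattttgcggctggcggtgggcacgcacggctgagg
Rpl35 holds a TOP start and an ETS core in reverse, and Rpl7a a TOP start and the YY1 core. No such match lay in the stretches shown of Rps19, Rpl10 and Rpl10l. CG dinucleotides numbered 27, 33 and 23 in the 300-base windows of Rpl35, Rpl7a and Rps19, where the summits lay, and 17 and 13 in those of Rpl10 and its autosomal copy Rpl10l, which serves the testis.

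The median CG count was higher at members with an NT interval than without. Shares of the TOP start and the ETS core were alike in the 2 groups, and those of AAGATGG and TATAAA rest on 2 to 7 genes in each. With 1 promoter per gene, members with an NT interval had a median of 23 CG dinucleotides (range 8 to 35, n = 44) and members without an interval 17 (2 to 34, n = 20), so the ranges overlapped. Without the -like paralogs, the latter had 18 (10 to 34, n = 16). All protein-coding genes had medians of 23 with and 6 without an NT interval. A TOP start was found in 45.3% of the members' promoters and in 18.7% of all 17492 protein-coding promoters counted in this way (18.3% of all 32851 promoters in the table). The search used the first listed start of each gene, so a gene without a match may still have a TOP start. Of members with an NT interval 20 of 44 had it, and of those without 9 of 20. The ETS core was found in 39.1% of the members' and 11.9% of all protein-coding promoters, found at 17 of 44 members with and 8 of 20 without an interval. Over all protein-coding genes it was found at 17.3% with and 8.58% without an NT interval. AAGATGG was found in 14.1% against 6.37%, at 7 of 44 members with and 2 of 20 without an interval, and over all protein-coding genes at 6.11% and 6.53%. TATAAA was found in 10.9% against 13.3%, at 3 of 44 with (6.82%) and 4 of 20 without, and over all protein-coding genes at 6.54% with and 17.5% without. Shares for these 3 motifs count either strand, and a match describes letters only. At 8 of the 44 members with an NT interval the highest summit lay in such a window around an annotated start, so most summits lay outside the sequence counted.

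Among large subunit genes, 35 of 52 (67.3%) had an NT and 14 (26.9%) an LPS interval. Rpl10a had 53 in NT (chr17:28328093-28329524) and no LPS interval. Rpl18 had 47 and Rpl21 42 in NT, both without an LPS interval, and the Rpl18 summit lay 74 bp into that gene from its listed start and 143 bp from an end of Sphk2. Rpl23 had 41 in NT and 11 in LPS, the lowest ratio of LPS to NT value among the members (0.268). The interval counted for Rpl24, at 40 in NT alone, had its summit 2740 bp beyond the gene's far end, at the same distance from an end of Zbtb11, and 7902 bp from the start of Rpl24.

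The ribosomal stalk, which recruits elongation factors, is built from Rplp0, Rplp1 and Rplp2. Rplp0 had 37 in NT and 13 in LPS, Rplp1 had 21 in NT alone, and Rplp2 had no interval in either library. Rpl5 and Rpl11 bind 5S ribosomal RNA together and can restrain Mdm2, the p53 ligase. Of this pair Rpl5 had 36 in NT and 12 in LPS, and Rpl11 had none in either. Rpl38, which has been linked to the translation of Hox messages, had 16 in NT and 9 in LPS, the lowest NT value of the large subunit (ratio 0.562). Further large subunit genes with both were Rpl7a (35 and 15), Rpl35 (35 and 11), Rpl37 (35 and 13), Rpl13 (37 and 12), Rpl34 (30 and 13), Rpl26 (26 and 14), Rpl6 (31 and 12), Rpl9 (28 and 9) and Rpl31 (23 and 10). In each of them the LPS value was the lower. That was so at most protein-coding genes with both, whose ratio of LPS to NT value had an interquartile range of 0.407 to 0.577.

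Among small subunit genes, 23 of 32 (71.9%) had an NT and 5 (15.6%) an LPS interval. Of genes with an NT interval, 5 of 23 also had one in LPS here and 14 of 35 in the large subunit. Rps15 had the highest NT value, 49, at chr10:80292125-80293422, with no LPS interval closer than 5211 bp. Rps7 had 48 in NT and 19 in LPS, from overlapping intervals at chr12:28635049-28636404 and chr12:28635402-28636422. Rps6, the substrate of the S6 kinases, had 39 and 16, and Rps2 had 27 and 14. Rps15a had 23 and 10, and Rps12 had 32 and 11. In all 5 the LPS value was the lower, as at most protein-coding genes with both. Rps20 (43) had an NT interval alone, as had Rps14 (34) and Rps19 (33), whose loss impairs red blood cell formation. Rpsa, also known as a laminin receptor, had 17 in NT alone, and Rps27a, whose product is made as a fusion with ubiquitin, had 23 in NT alone with the summit nearer to an end of Clhc1. Median NT values were 31 for large and 30 for small subunit genes with an NT interval.

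Of the 7 paralogs with a -like symbol, 3 had an NT and 0 an LPS interval. These were Rpl22l1 (31), Rps27l (28), a gene known as a p53 target, and Rpl7l1 (27), whose interval lay 9663 bp from the start, beyond the far end, and 358 bp from an end of 2310039H08Rik. Their parent genes Rpl22 and Rpl7 had 28 and 20 in NT alone, and Rps27 had no interval. The tissue-restricted copies Rpl3l of muscle and Rpl39l and Rpl10l of male germ cells had no interval, and neither had Rpl32l. Without these 7 genes, 55 of 77 members (71.4%) had an NT interval.

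In all, 26 members had no interval in either library. In symbol order they began with Rpl10, Rpl10l, Rpl11, Rpl13a, Rpl14, Rpl15, Rpl23a, Rpl27, Rpl3 and Rpl32. Among the others were Rpl32l, Rpl36a, Rpl39, Rpl39l, Rpl3l, Rpl41, Rplp2, Rps21, Rps25, Rps27, Rps28, Rps29, Rps4x and Rps9. All 4 members on the X chromosome, Rpl10, Rpl36a, Rpl39 and Rps4x, were among them. Of the 80 on autosomes, 58 (72.5%) had an NT interval. Over all protein-coding genes, 12.5% of 966 on the X chromosome and 39.4% of the others had one. Of 30 members that hold an annotated snoRNA gene, 22 (73.3%) had an NT interval, and of 54 that hold none, 36 (66.7%) had one.

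Neighbouring genes touch these counts. The highest NT summit was nearest to an end of the member itself at 51 of 58 genes and to an end of another gene at 7, among them Rpl18, Rpl37, Rpl4, Rpl7, Rpl7l1 and Rps27a. Rpl24, with its equal distance to Zbtb11, counts among the 51. Another protein-coding gene had an end within 2.5 kb of 43 members, of which 28 (65.1%) had an NT interval, and of the 41 members without such a neighbour 30 (73.2%) had one. An LPS interval lay at 10 of the 43 and 9 of the 41. Pseudogenes that carry a ribosomal protein name, most of which are copies of the message inserted elsewhere in the genome, were counted in the same way. Of 318 such pseudogenes, 4 (1.26%) had an NT and 1 (0.314%) an LPS interval within the same distance. An NT interval lay at 3 of the 296 (1.01%) with no protein-coding gene end within 2.5 kb. Of the 22 with such an end, 1 (4.55%) had an NT interval. Other pseudogenes were not counted beside them, and the reason for these shares was not tested. How reads that fit several copies were placed was not given in the sources used here.

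Where a ribosomal protein gene had an NT interval, its value lay in the range of other genes. The NT values of the 58 genes had a median of 31 (interquartile range 23.2 to 37), and 44 of them lay above 20 and up to 40. Over all 8362 protein-coding genes with an NT interval the median was 28 (22 to 38). The members' highest NT intervals had a median width of 1169 bp (interquartile range 993.5 to 1304.8), against 1321 bp over all genes. In LPS the 19 values had a median of 12 (interquartile range 11 to 14), against a median of 18 over all 3536 genes with an LPS interval. Of the 19, 17 were at or below 16, the median of the LPS list, and Rps7, at 19, was above it. The members' lowest LPS value was 9, near the lowest value of any LPS interval, 7. How far such a lower limit shapes the genes with NT alone and the ratios at low NT values was not tested.

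The ratio of LPS to NT value at the 19 genes with both had a median of 0.396 (interquartile range 0.339 to 0.435), with the lowest, 0.268, at Rpl23. Over all 3419 genes with both it was 0.491 (interquartile range 0.407 to 0.577), and 15 of the 19 members were below that median. In the range of NT values from 16 to 48, the median was 0.391 for 18 members (interquartile range 0.336 to 0.434) and 0.5 for 2237 protein-coding genes (0.406 to 0.588). Against protein-coding genes of like NT value and interval width the gap was smaller at NT values above 20. The medians were 0.435 for 6 members and 0.5 for all at 21 to 30. They were 0.351 for 9 members and 0.412 for all at 31 to 40, and 0.332 for 2 members and 0.37 for all at 41 to 60. Without the match on width the medians over all were 0.519, 0.455 and 0.467. At 11 to 20 the match changed nothing, with 0.562 for 1 member and 0.632 for all either way. Ratios above the members' median included those of Rpl38 (0.562), Rpl26 (0.538), Rps2 (0.519), and Rpl31 and Rps15a (0.435 each). The lowest after Rpl23 were those of Rpl35 (0.314), Rpl9 (0.321), Rpl13 (0.324) and Rpl5 (0.333). The order of single ratios has no replicate behind it. In every pair the NT and LPS intervals overlapped, with a median of 80 bp between summits (0 at Rps2 to 528 at Rpl38). The LPS interval was the narrower at 16 of 19 genes. Overlap, summit distance and narrowing were not counted over all protein-coding genes, so they cannot be called particular to the members.

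**Figure D3:**
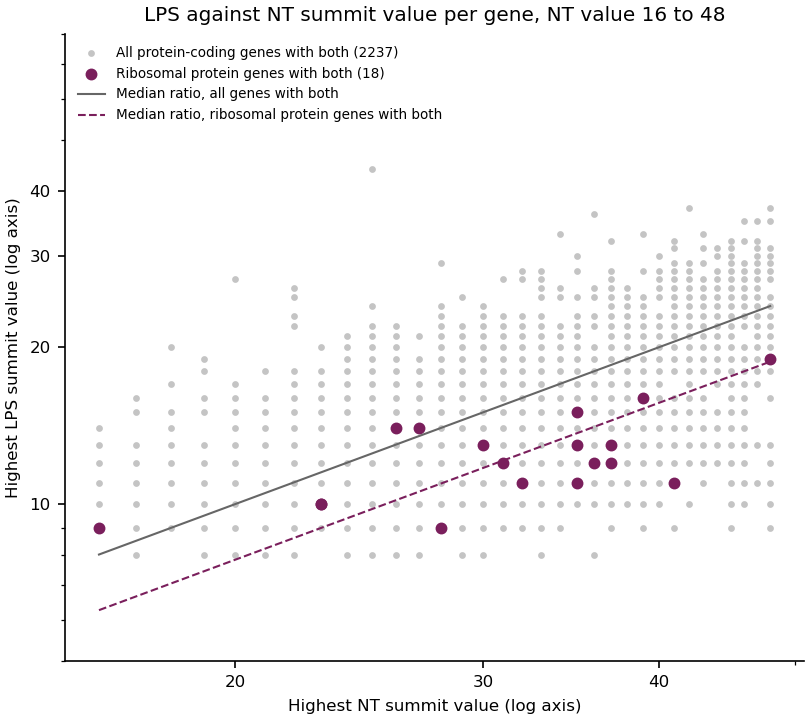
Highest LPS summit value (vertical, log axis) against highest NT summit value (horizontal, log axis) per gene, for the 2237 protein-coding genes (grey) and 18 ribosomal protein genes (purple) with an interval in both libraries and an NT value from 16 to 48. Lines mark the median ratios in that range, 0.5 for all genes (solid) and 0.391 for the ribosomal protein genes (dashed), and genes with the same pair of values share a point.

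Members with and without an LPS interval overlapped in NT value. Members with both had a median NT value of 35 (interquartile range 27.5 to 37), and members with NT alone 28 (22 to 36.5). With NT values of 21 to 30, 6 of 22 members (27.3%) also had an LPS interval, against 25.3% of 3363 protein-coding genes, and with values of 31 to 40, 9 of 22 (40.9%) against 46.1% of 1678. Among protein-coding genes whose highest NT interval was also of like width, it was 18.5% of 2367 in the lower and 307 of 1024 in the upper of these ranges, below the shares of the members. With values of 41 to 60, 2 of 7 members (28.6%) had one, Rps7 and Rpl23, against 82.7% of 1058 protein-coding genes. The members' intervals in that last range were 990 to 1432 bp wide, and among 219 protein-coding genes with a highest interval of like value and width 53.4% had an LPS interval. The 5 others were Rpl10a, Rps15, Rpl18, Rps20 and Rpl21. For Rpl10a, 271 of 301 protein-coding genes (90.0%) within 3 of its NT value had an LPS interval, and for Rps15 322 of 391 (82.4%). These 2 shares match NT value alone and not interval width, which lowered the share in this range from 82.7% to 53.4%. The share at these values rests on 7 genes. Over the 39 members with NT alone, the nearest LPS interval was a median of 73397 bp from the NT interval, and within 10 kb at 2 of them. This distance was not measured over all protein-coding genes with NT alone, so it cannot be called particular to the members.

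**Figure D4:**
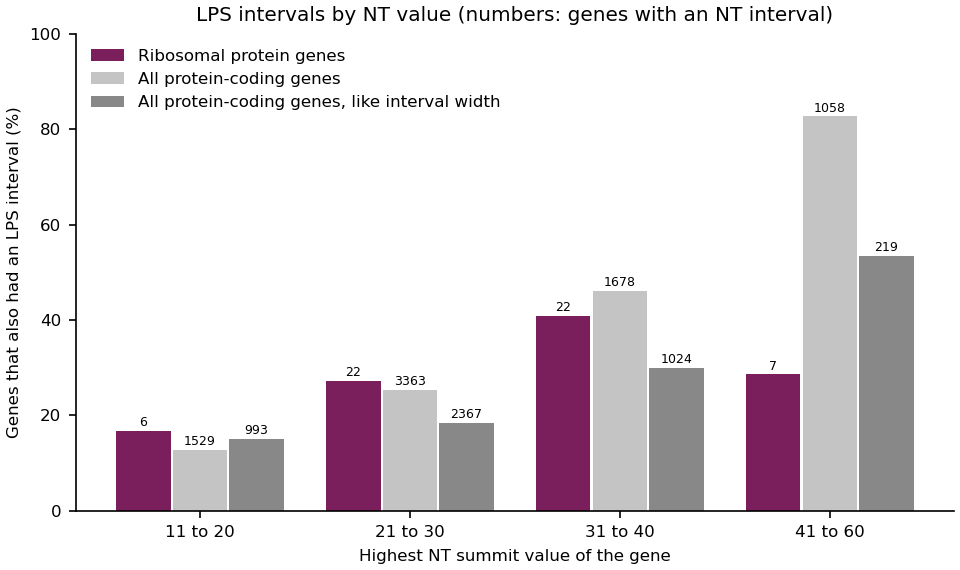
Share of genes with an NT interval that also had an LPS interval (vertical axis, percent), by the gene's highest NT value, for ribosomal protein genes (purple), all protein-coding genes (light grey) and those with an NT interval of like width (dark grey); the number of genes stands over each bar. In the range of 41 to 60 the bars are at 28.6%, 82.7% and 53.4%; NT values above 60 are not shown.

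The other genes of translation, in lists chosen by symbol or role, had NT intervals in shares from 44.4% to 66.7%. Some lists also hold related genes that are not such factors themselves. Examples are Eif4ebp1 and Eif4ebp2 among initiation factors, and Eef2k and Eef1e1 among elongation and release factors. Initiation factors had an NT interval at 33 of 52 genes (63.5%) and an LPS interval at 10 (19.2%), led in NT by Eif4a3 (56, NT alone). Elongation and release factors had them at 8 and 2 of 12, with Eef1a1, which delivers aminoacyl-tRNA, at 54 in NT and 16 in LPS. Mitochondrial ribosomal protein genes, whose products serve the separate ribosome of that organelle, had them at 40 (51.3%) and 4 (5.13%) of 78, with Mrpl57 at 52 in NT alone. Aminoacyl-tRNA synthetase genes had them at 10 and 2 of 20, with Qars at 46 and 20. Ribosome assembly and nucleolar genes had them at 16 (44.4%) and 1 (2.78%) of 36, with Nop56 at 46 in NT alone. None of these lists had a gene with an interval in LPS alone. Median ratios of LPS to NT value as low as that of the ribosomal protein genes were found for elongation and release factors (0.362, 2 genes) and aminoacyl-tRNA synthetases (0.394, 2 genes). Initiation factors had 0.45 (10 genes). Higher ratios than the 0.491 of all protein-coding genes with both were found for mitochondrial ribosomal protein genes (0.54, 4 genes) and ribosome assembly and nucleolar genes (0.545, 1 gene).

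Proteasome genes, most of them active widely but some inducible or tissue-restricted such as Psmb8 and Psma8, and Hox genes, known polycomb targets, were counted in the same way. Proteasome subunit genes had an NT interval at 23 of 39 (59.0%) and an LPS interval at 4 (10.3%), with a median NT value of 22. Hox cluster genes had them at 37 (94.9%) and 34 (87.2%) of 39, with median values of 80 in NT and 45 in LPS. The interquartile range of NT values was 23.2 to 37 for ribosomal protein, 17.5 to 28.5 for proteasome and 48 to 96 for Hox genes. The median ratio of LPS to NT value was 0.666 for proteasome (4 genes) and 0.496 for Hox genes (34 genes). Of genes with an NT interval, 32.8% of ribosomal protein, 17.4% of proteasome and 91.9% of Hox genes also had one in LPS, against 40.9% of all protein-coding genes. These shares are descriptions of 2 libraries, and no test of their differences was made.

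**Figure D5:**
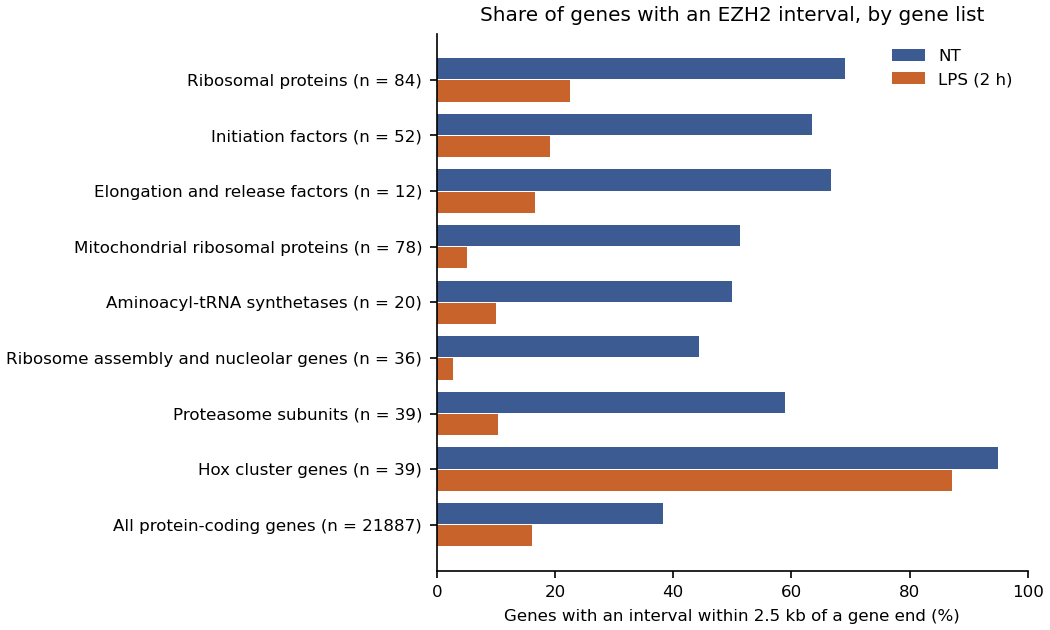
Percentage of genes with an EZH2 interval within 2.5 kb of either gene end (horizontal axis) in NT (blue) and LPS (orange), for the ribosomal protein genes, 5 lists of other translation genes, proteasome subunit genes, Hox cluster genes and all protein-coding genes. The bars of ribosomal protein genes are at 69.0% and 22.6%, and those of Hox genes at 94.9% and 87.2%.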

How the data were processed

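Per the submitters' processing notes, BWA, SICER and the build mm10 were used, with no version, role or setting. The authors deposited tracks of intervals and of summits for each EZH2 library. Each summit carries a score, deposited by the authors as a whole number in a unit that no source used here gives. The depth of reads is unknown, so no interval for counting error was computed for these values.

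Start, end and summit positions were converted to 1-based coordinates. An interval was counted for a gene when at least 1 bp lay within 2.5 kb of either annotated gene end, and the highest summit value was taken. Overlaps were computed with pandas 2.3.3 in Python 3.11.15, and the overlap code was tested on simulated data. Promoter sequences came from RefSeq, on GRCm38.p6. No test was planned, with 1 library per condition.

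The members, lists and rules were chosen with earlier results of these data known. Genes were named by fixed rules: the 10 highest NT and 8 highest LPS values, the 5 highest and 5 lowest ratios, the paralogs, a few fixed symbols, and the members without an interval in symbol order. Other members, and the leading genes of the other lists, were named after their values were seen. The ranges of NT value, the like-width comparison and the pseudogene count were also chosen after the data were seen. A few members are counted but not reported by name here. Alternatives tried were other windows, overlap rules, interval lists and member sets.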

Additional observations from a re-analysis of the deposited data

How the results depend on the processing

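No paired analysis was possible because NT and LPS are single libraries. Of 96 values recomputed under 12 alternatives (2 of them, which left out 1 member or the members whose NT summit is nearer another gene, chosen after seeing the data), 84 stayed close to the reported value: counts within 1.5 times, and medians inside the exact 95% order-statistic interval of the reported median (27 to 34 for the NT value, 11 to 14 for the LPS value and 0.333 to 0.435 for the ratio). The 12 others came from settings that use fewer intervals or fewer genes by construction. Keeping only intervals whose value reached their list's median, 39 members of 84 had an NT interval in place of 58, a fall that the limit of 1.5 times counts as close. In that setting 3 members of 84 had an LPS interval, all 3 in both libraries, and the median values were 35 in NT and 19 in LPS. Over all protein-coding genes that setting left 21.3% with an NT and 9.75% with an LPS interval, so the members were below the background in LPS, where they had been above it. When the NT list was shortened to as many intervals as LPS had, 39 of 84 members had an NT interval, against 20.6% of all genes. Their median NT value was then 35, 24 members were in NT alone and 4 were in LPS alone (Rpl26, Rpl31, Rpl38 and Rps15a). Of all genes 3.75% were then in LPS alone, so the absence of members in LPS alone depends on the longer NT list. Without the members near another gene end, 30 had an NT interval, 9 an LPS interval, 9 both and 21 NT alone, of 41. With annotated starts only, 23 of 64 had NT alone.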
